A study of Mus musculus with 18 samples.

Results

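The Hox genes were examined as 38 genes in 4 clusters, Hoxa on chromosome 6 (10 genes), Hoxb on chromosome 11 (10 genes), Hoxc on chromosome 15 (9 genes) and Hoxd on chromosome 2 (9 genes). CTCF regions were taken as members when a peak summit lay inside one of these genes or within 10 kb of it, in mm10 coordinates. This gave 34 of 71075 regions in the wild-type list, 31 of 62238 in the TKO list and 30 of 59372 in the SKO list. Merged over the 3 lists they form 37 regions of 78072.

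CTCF was measured by chromatin immunoprecipitation and sequencing in mouse embryonic stem cells of 3 genotypes. WT cells are described no further in the labels, TKO cells are a Tet1/2/3 triple knockout, and SKO cells are a sextuple knockout of Dnmt1/3a/3b and Tet1/2/3. There were 3 ChIP and 3 input samples per genotype, 18 in all, and the authors called 1 peak list per genotype on pooled replicates. The labels do not say whether each line is 1 clone or whether replicates came from separate cultures, and they give irradiated mouse embryonic fibroblasts as the usual feeder layer, whose share of the lysates was not measured. Peak lists hold no expression values, so the cell type could not be checked by its markers.

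Hox genes encode homeodomain transcription factors that set identity along the body axis. Genes within a cluster are known to be switched on in the order in which they lie, and in embryonic stem cells the clusters are known as silent domains covered by Polycomb marks. CTCF, a zinc finger protein that stops cohesin and so places the ends of chromatin loops, is known to bind between Hox genes. Its binding is hindered at some motifs by CpG methylation, which DNMT enzymes place and TET enzymes oxidise.

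For each region the text gives the pileup, which is the number of ChIP fragments over the summit. It was returned as a whole number from the authors' fold enrichment and −log10 p for all but 1 region in each list. The background fragment level over the genome was 1.76 (WT), 1.82 (TKO) and 1.37 (SKO), and the median pileups were 40, 41 and 35 in the same order. Ratios between lists were divided by the median ratio over all shared regions (0.894 for TKO to WT, 0.733 for SKO to WT, 0.821 for SKO to TKO), so that 1 is the typical shared region. Each list pools its replicates, so no spread between replicates exists, no p-value is given, and the 95% intervals cover counting error only. PCR copies are not independent molecules, and molecular identifiers are not mentioned in the labels, so the error can be larger. A separate line stands behind each genotype, and the missing enzymes cannot be told apart from other differences between the lines.

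At 3 gene starts a summit lay within the 300 bases of promoter sequence in the RefSeq table (GRCm38.p6), which covers 22 of the 38 genes in 24 windows. They are shown because, among the genes the table covers, they are the promoters at which a CTCF peak had its summit. Genes without a window can hold others, such as Hoxc10, with a summit 192 bp from its boundary. Each line runs, on the gene's strand, from 60 bases before the summit to the annotated start. Capitals mark every stretch with the window's fewest mismatches to AGGNGGCGC, letters from the CTCF core motif, on either strand, where at most 1 of its 8 defined letters was mismatched.
Hoxa5 promoter, chr6:52204588-52204695, minus strand: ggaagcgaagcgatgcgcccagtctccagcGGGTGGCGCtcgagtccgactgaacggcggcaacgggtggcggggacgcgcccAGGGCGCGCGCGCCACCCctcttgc
Hoxd10 promoter, chr2:74691741-74691890, plus strand: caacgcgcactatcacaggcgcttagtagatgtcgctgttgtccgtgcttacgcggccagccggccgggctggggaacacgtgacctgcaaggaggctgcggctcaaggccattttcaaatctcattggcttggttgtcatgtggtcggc
Hoxd9 promoter, chr2:74697609-74697762, plus strand: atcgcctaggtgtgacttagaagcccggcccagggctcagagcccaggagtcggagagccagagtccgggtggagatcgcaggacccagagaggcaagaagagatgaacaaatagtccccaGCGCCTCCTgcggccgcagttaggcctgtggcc

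The Hoxa5 sequence held 3 equal matches with 1 mismatch, 2 on the strand of the gene beginning 78 and 25 bp before its start and 1 on the opposite strand at 16 bp. The last 2 lie side by side in 1 run of capitals, and the summit lay 48 bp before the start. In the Hoxd9 sequence a match without mismatch lay on the opposite strand, at 33 bp before the start, and the summit at 94 bp. The summit at Hoxd10 lay 90 bp before a start that falls inside the extent of the gene, and the closest matches in that window had 2 mismatches. Searched on both strands (GCGCCNCCT on the other), 3.30% of all 32851 promoter windows held an exact match, 36% one with at most 1 mismatch and 86.2% one with at most 2. Among the 24 Hox windows 2 held an exact match, those of Hoxd9 and Hoxd13. The windows of Hoxa5, Hoxd10 and Hoxd9 held 29, 22 and 20 CpG dinucleotides, against a median of 7 over all windows and 14.5 over Hox windows. A match is a description of letters and not a measured site, and methylation was not measured here.

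The merged 10 kb windows around the 38 genes cover 510.3 kb and held 66.6 WT regions per Mb, where windows around all 21631 protein-coding genes of the autosomes and X held 37.7. Hoxa was densest in WT with 84.4 per Mb, followed by Hoxd with 77, Hoxb with 64.7 and Hoxc with 44.2. In TKO the 38 genes' windows held 60.8 per Mb against 33.4, and in SKO 58.8 against 31.9. Hoxc in SKO, with 29.5 per Mb, was below the value of all protein-coding windows. The folds, which are the authors' own, had a median of 15.6 over WT Hox regions against 10 over all WT regions, 14 against 9.84 in TKO and 15.2 against 10.5 in SKO. Of the 34 WT regions 9 were in the strongest decile of the list by −log10 q and 5 in the weakest. Of the 37 regions 12 (32.4%) had a summit within 1 kb of a Hox gene boundary, while 28.4% of the windows' length lies that close. Over all merged regions 9.13% had a summit within 1 kb of a protein-coding gene boundary. Of the 37, 17 lay inside a Hox gene, 16 between Hox genes and 4 outside the outermost ones.

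**Figure D1:**
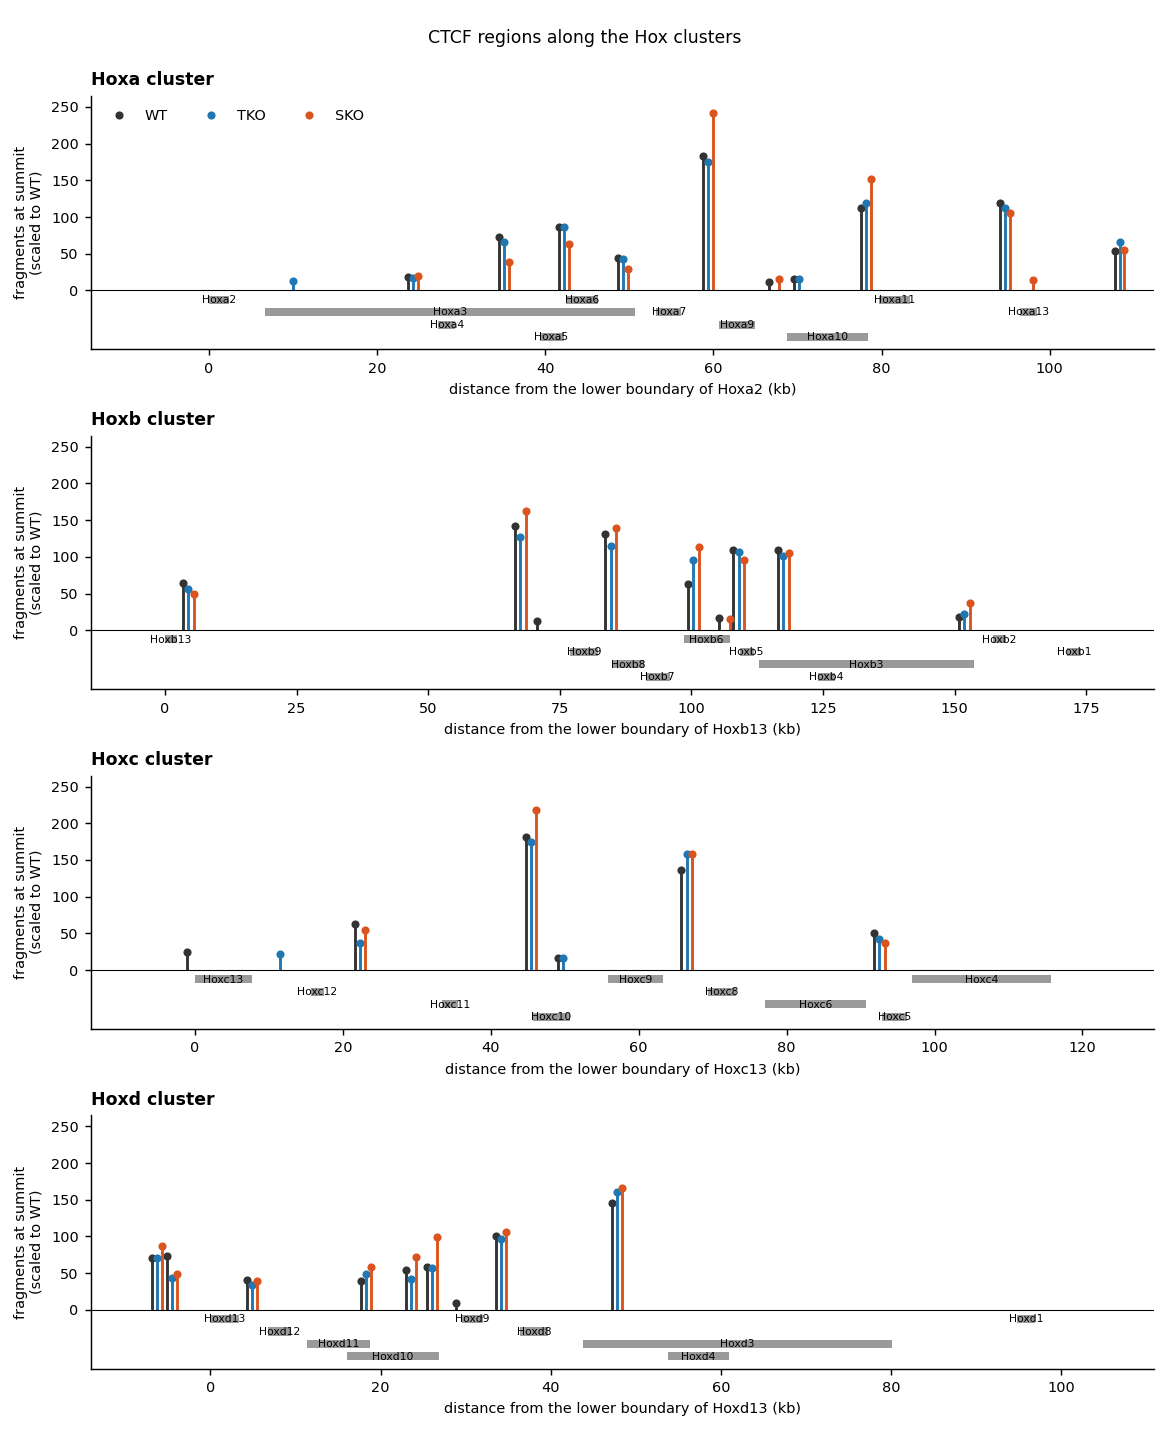
Pileup at the summit (ChIP fragments, y axis, TKO and SKO divided by the median ratio to WT) for each CTCF region against distance in kb from the first gene boundary of its cluster; stems are black for WT, blue for TKO and orange for SKO, set slightly apart for sight, and grey boxes are the Hox genes. Tall stems stand in all 3 colours at the same places, and stems of 1 or 2 colours are short.

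The ends of the clusters with low-numbered genes, which are active in the head and hindbrain, carried few regions. Hoxb1 and Hoxd1 had no region within 10 kb in any list, and Hoxa2, a hindbrain and branchial arch gene, had 1 in TKO alone. Hoxb2, its counterpart in Hoxb, had 1 in each list. Every gene of paralogue groups 3 to 12 had at least 1 region within 10 kb in each of the 3 lists. All 4 genes of group 13 had one in WT and TKO, and 3 of 4 in SKO, where Hoxc13 had none. Genes in a cluster lie close together and can share a region. In each list 1 region was the only one within 10 kb of Hoxc6, Hoxc5 and Hoxc4. The share of all protein-coding genes with a region within 10 kb was not counted, so these gene counts have no whole-list value beside them. At Hoxd the last summit, inside Hoxd3, was followed by 248.6 kb with no region in any of the lists. Intervals between neighbouring summits longer than 100 kb made up 7.97% of those in the WT list, 9.33% in TKO and 10.2% in SKO.

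Most Hox regions were present in all genotypes. Of the 37 merged regions 27 (73%) had a peak in all 3 lists, against 66.3% of all merged regions. Another 2 were in WT and TKO (7.18% of all merged regions had this pattern), 2 in WT and SKO (4.51%), 3 in WT alone (12.7%), 2 in TKO alone (4.3%) and 1 in SKO alone (3.34%). None was shared by the knockouts without WT (1.64%). In the TKO comparison 5 of 34 WT Hox regions had no TKO partner (14.7%, exact binomial interval 4.95% to 31.1%), where 19% of all WT regions had none. In the SKO comparison 5 of 34 had no SKO partner, the same share, where 21.9% of all WT regions had none. Of the TKO Hox regions 2 of 31 (6.45%, 0.791% to 21.4%) had no WT partner against 7.49% in the whole list, and of the SKO Hox regions 1 of 30 (3.33%, 0.0844% to 17.2%) against 6.59%. Between the knockouts 4 of 31 TKO Hox regions lacked an SKO partner (12.9%, 3.63% to 29.8%, and 14.5% in the whole list), and 3 of 30 SKO Hox regions lacked a TKO partner (10%, 2.11% to 26.5%, and 10.4% in the whole list). Each interval holds the share of the whole list.

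The regions that came and went were weak. The 27 WT Hox regions of the third decile or above all had a partner in both knockouts. Of these, 2 were in the third decile, where 36.3% of all WT regions lacked a TKO partner and 43.4% an SKO partner. The other 25 were in the fifth decile or above, where at most 6.95% and 9.54% of a decile lacked one. In the weakest decile all 5 Hox regions lacked a TKO partner and 3 of 5 an SKO partner. Over the whole WT list 70.4% and 76.9% of that decile lacked one. In the next decile both Hox regions had a TKO partner and neither an SKO partner, where 55.2% and 62.1% of that decile lacked one. The Hox regions found only in a knockout were in the weakest decile or the next of their own lists. Over the whole TKO list 41.8% and 20.6% of those deciles lacked a WT partner, and over the SKO list 37.5% and 17.55%. In any higher decile at most 9.16% of TKO and 8.14% of SKO regions lacked one.

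**Figure D2:**
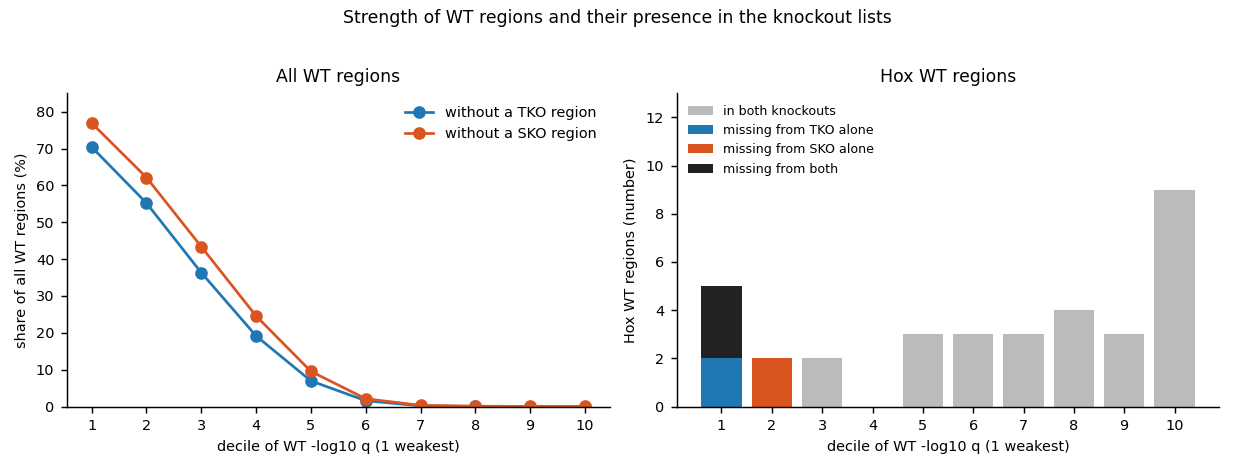
Left, share of all WT regions (%, y axis) with no TKO region (blue) or SKO region (orange) by decile of WT −log10 q (x axis, 1 weakest); right, number of WT Hox regions in each decile, grey where both knockouts had a partner and coloured where one or both had none. All Hox regions without a partner fall in the first 2 deciles, where 55.2% to 76.9% of WT regions lack one.

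Among regions present in both lists of a comparison, Hox regions lay within the spread of the rest. The median scaled ratio of TKO to WT was 0.964 over 29 Hox regions (quartiles 0.883 and 1.05), beside quartiles of 0.854 and 1.17 over 57260 shared regions. The ratio of SKO to WT had a median of 1.05 over 29 Hox regions (0.876 and 1.25), beside 0.83 and 1.19 over 55190. That median fell on the other side of 1 when pileups were scaled by the genome-wide backgrounds (0.991) or taken as deposited folds (0.867), so no direction is given for it. That of SKO to TKO had a median of 1.14 over 27 (0.914 and 1.26), beside 0.838 and 1.18 over 52947. A ratio at least 1.5 times above the typical one was found at 1 Hox region in TKO to WT (5.91% of all shared regions), 4 in SKO to WT (6.68%) and 3 in SKO to TKO (6.26%). One at least 1.5 times below it was found at 2 (5.97%), 3 (8.59%) and 1 (7.34%). The comparisons share lists, so a region with an unusual WT pileup enters both WT comparisons.

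**Figure D3:**
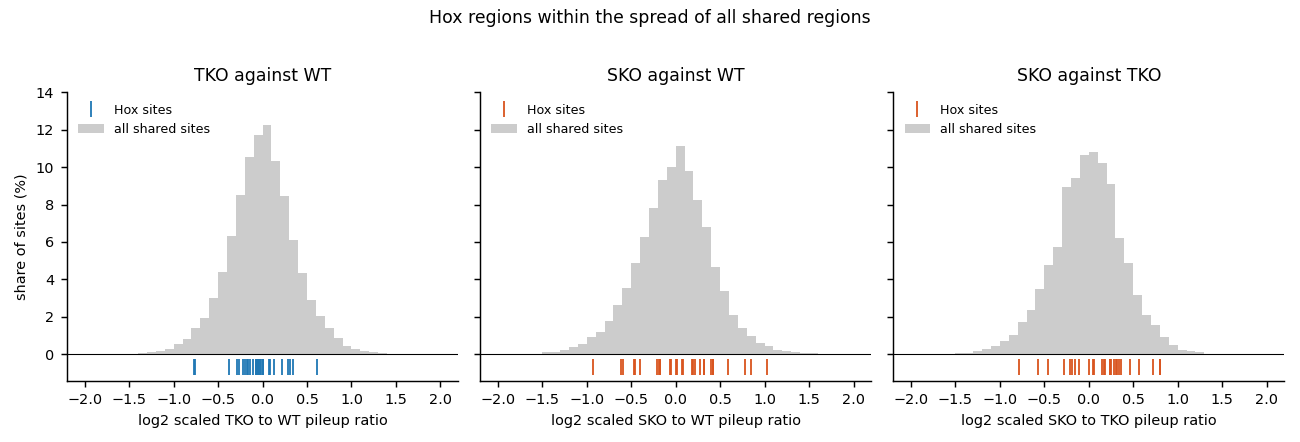
Distribution of the log2 scaled pileup ratio (x axis) over all shared regions (grey bars, share in % on the y axis) with each shared Hox region as a coloured tick below, for TKO to WT, SKO to WT and SKO to TKO. The Hox ticks spread over the body of each distribution, with medians of 0.964, 1.05 and 1.14 on the ratio scale.

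The Hoxa cluster spans 98.5 kb from Hoxa2 to Hoxa13 and held 12 merged regions, 10 in each list. Its strongest lay between Hoxa7 and Hoxa9, a gene of blood stem cells and leukaemia (52221510 to 52222289), with 183 fragments in WT, 157 in TKO and 177 in SKO. The next in WT lay between Hoxa11 and Hoxa13, the gene of the distal limb and genital tract (52256987 to 52257368), with 119, 101 and 77 fragments. Inside Hoxa10, which patterns the uterus and lumbar spine (52240294 to 52240788), the pileup was 113, 107 and 111, which put it above the region between Hoxa11 and Hoxa13 in TKO and SKO. All 3 lie among the high-numbered genes, and each was in the strongest decile of the WT list.

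Toward the low-numbered end, 4 regions present in all lists lay inside the 44 kb that the table gives to Hoxa3, a gene of the thymus and parathyroid whose long transcripts span Hoxa4, Hoxa5 and Hoxa6. The weakest, near Hoxa4 (52186602 to 52186884), had 19 fragments in WT, 15 in TKO and 14 in SKO. Between Hoxa4 and Hoxa5 (52197270 to 52197639) there were 73, 59 and 28. At the promoter of Hoxa5, a lung and thoracic gene (52204346 to 52204901), whose sequence is printed above, there were 86, 77 and 46. Beyond Hoxa6 (52211493 to 52211891) there were 44, 38 and 21. The last 3 were low in SKO, while their TKO pileups stayed near the typical ratio.

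The scaled SKO to WT ratio was 0.523 between Hoxa4 and Hoxa5 (0.326 to 0.819), 0.729 at the Hoxa5 promoter (0.498 to 1.05) and 0.651 beyond Hoxa6 (0.368 to 1.12). Of all shared regions 2.1%, 13.5% and 7.49% had a lower ratio. The TKO to WT ratio at the same regions was 0.904, 1 and 0.967. In the next regions the SKO to WT ratio was 1.32 between Hoxa7 and Hoxa9 (1.07 to 1.63) and 1.34 inside Hoxa10 (1.02 to 1.76), and 0.882 between Hoxa11 and Hoxa13 (0.654 to 1.19). The counting interval leaves out 1 for the region between Hoxa4 and Hoxa5, for that between Hoxa7 and Hoxa9 and for that inside Hoxa10, and holds it for the others. By deposited fold the SKO to WT ratio was 0.365, 0.604 and 0.704 at the 3 low regions, and 0.972 between Hoxa7 and Hoxa9 and 1.05 inside Hoxa10, so the direction between Hoxa7 and Hoxa9 turns with the measure. The run of 3 low neighbouring values was noticed after the values were seen, and whether it exceeds the variation between replicates was not tested.

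The remaining Hoxa regions were weak or at the edge. Beyond Hoxa13, near the non-coding RNA gene Hottip, which is known as an activator of posterior Hoxa genes (52270509 to 52271075), the deposited fold was 6.35 in WT, against 12.6 in TKO and 7.24 in SKO. The pileups there were 54, 59 and 40 and the local backgrounds 7.67, 3.78 and 4.66. The higher fold in TKO stood beside a scaled pileup ratio of 1.22 (0.831 to 1.80) and a lower local background. A region between Hoxa9 and Hoxa10 (52229572 to 52229820) had 12 fragments in WT and 11 in SKO and no TKO partner. One inside Hoxa10 (52232515 to 52232724) had 16 in WT and 14 in TKO and no SKO partner. TKO alone had a region of 11 fragments inside Hoxa3 near Hoxa2 (52172193 to 52172482), and SKO alone had one of 10 fragments inside Hoxa13 (52259800 to 52260006). Their −log10 q values, from 1.33 to 6.90, put all 4 in the weakest deciles, the first 2 of 10.

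The Hoxb cluster has Hoxb13, a prostate and hindgut gene, apart from the rest, with 74.7 kb to Hoxb9. Within 10 kb of its genes it held 9 merged regions, 9 in WT, 7 in TKO and 8 in SKO. A region with more fragments, between Hoxb13 and Hoxb9 but more than 10 kb from both, is described at the end. The strongest within 10 kb lay 9.58 kb before Hoxb9 (96261452 to 96262031), with 142 fragments in WT, 113 in TKO and 119 in SKO. Between Hoxb9 and Hoxb8 (96278672 to 96279243) there were 131, 102 and 102. Between Hoxb6 and Hoxb5, 257 bp from the latter (96303022 to 96303711), there were 109, 95 and 70, and inside the long Hoxb3 before Hoxb4, a blood stem cell gene (96311510 to 96311970), 110, 91 and 77. A region 2.1 kb beyond Hoxb13 (96198403 to 96198840) had 65, 50 and 36. None of these 5 had an interval that leaves out 1 in either comparison with WT. By deposited fold their ratios to WT ran from 0.553 in SKO inside Hoxb3 to 1.155 in SKO between Hoxb9 and Hoxb8. Before Hoxb9 the fold ratio was 0.589 in TKO to WT. The local background inside Hoxb3 was 5.55 in WT and 7.32 in SKO, and before Hoxb9 it was 3.00 in WT and 4.41 in TKO.

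Hoxb6, a thoracic and blood progenitor gene, held the region with the highest TKO to WT ratio of all Hox regions. It lies 1.88 kb inside the gene (96294465 to 96294961) and had 63 fragments in WT, 86 in TKO and 83 in SKO. The knockout pileups were above WT without any scaling. The scaled ratio was 1.53 in TKO to WT (1.09 to 2.15, with 94.7% of shared regions lower) and 1.80 in SKO to WT (1.28 to 2.53, 97.8% lower), and SKO to TKO stood at 1.18 (0.859 to 1.61). The local background was 6.08 in WT, against 3.15 in TKO and 3.33 in SKO, so the deposited fold moved further, from 9.04 to 21 and 19.4. Both comparisons rest on the same WT pileup.

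At the low-numbered end of Hoxb, a region inside the far part of Hoxb3 (96345971 to 96346372) had 18 fragments in WT, 20 in TKO and 27 in SKO. Its scaled SKO to WT ratio of 2.04 was the highest of the Hox regions, with an interval from 1.09 to 3.94 that reflects the few fragments. Of all shared regions 99.1% had a lower ratio. Another weak region inside Hoxb6 (96300423 to 96300683) had 17 fragments in WT and 11 in SKO and was missing from TKO. A WT region 5.39 kb before Hoxb9 (96265814 to 96266043), with 12 fragments, was missing from both knockouts. Beyond the last Hoxb region, no further region lay within 53.9 kb in WT or 61.7 kb in each knockout.

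Hoxc was the sparsest cluster, with 7 merged regions over the 116 kb from Hoxc13 to Hoxc4, 6 in WT, 6 in TKO and 4 in SKO. It also held the Hox region with the highest fold in every list, 192 bp from Hoxc10, a gene of the lumbar cord and hindlimb (102966285 to 102966774). That region had 181 fragments in WT, 156 in TKO and 160 in SKO, at folds of 50, 37.8 and 41.9. Between Hoxc9 and Hoxc8, both thoracic genes (102987330 to 102987850), there were 136, 141 and 116 fragments. Between Hoxc6 and Hoxc5 (103013487 to 103013800) there were 51, 38 and 27. The first 2 were in the strongest decile of each list, and the third was of middle strength. In the same order the scaled TKO to WT ratio was 0.9645, 1.16 and 0.834, and SKO to WT 1.205, 1.163 and 0.722. Each interval holds 1. By deposited fold TKO to WT was 0.758, 0.569 and 0.539, and SKO to WT 0.838, 0.927 and 0.557. The local background between Hoxc9 and Hoxc8 was 3.70 in WT, against 7.56 in TKO and 3.33 in SKO.

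Between Hoxc12 and Hoxc11, close to the non-coding RNA gene Hotair (102943223 to 102943661), the pileup was 63 in WT, against 33 in TKO and 40 in SKO. Its scaled ratio of TKO to WT, 0.586 (0.373 to 0.907), was the lowest of the Hox regions, and 2.51% of shared regions had a lower one. In SKO the ratio to WT was 0.866 (0.568 to 1.31) and that to TKO 1.48 (0.908 to 2.42). The local background was 5.82 in WT, against 4.09 in TKO and 4.66 in SKO.

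The other Hoxc regions were each missing from a list. One 363 bp before Hoxc13, a hair and nail gene (102920668 to 102920884), had 25 fragments in WT over a local background of 6.61 and no partner in a knockout. TKO alone had a region of 20 fragments between Hoxc13 and Hoxc12 (102932451 to 102932742). A region inside Hoxc10 (102970800 to 102971058) had 16 fragments in WT and 15 in TKO and was missing from SKO. In SKO the first Hoxc region therefore stood at Hotair, and the next one below it was 135.9 kb away, against 19.6 kb from the first region in WT and 31.4 kb in TKO. That flanking region (102901056 to 102901350) had 28 fragments in WT and 24 in TKO and was not in the SKO list.

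Hoxd held 9 merged regions within 54 kb, 9 in WT and 8 in each knockout. Every region of the knockout lists had a partner in the other 2 lists. The strongest lay inside Hoxd3 before Hoxd4 (74715683 to 74716393), with 146 fragments in WT, 143 in TKO and 122 in SKO. Between Hoxd9 and Hoxd8 (74702140 to 74702648) there were 101, 86 and 78. These are the last regions before the long empty stretch, and their scaled ratios lay between 0.953 and 1.14.

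Before Hoxd13, the digit gene, 2 regions lay 1.76 kb apart. The outer one (74661612 to 74662208) had 70 fragments in WT, 63 in TKO and 64 in SKO. The inner one, 4.49 kb from Hoxd13 (74663514 to 74663921), had 74, 39 and 36. It had a scaled ratio of 0.590 in TKO to WT (0.389 to 0.881) and 0.663 in SKO to WT (0.433 to 1.001, which holds 1), and the SKO to TKO ratio was 1.12 (0.695 to 1.82). The outer region stood at 1.01 (0.705 to 1.44) and 1.25 (0.874 to 1.78), and the TKO to WT intervals of the pair overlap. Of all shared regions 2.61% and 8.37% had a lower ratio to WT than the inner region. By deposited fold the TKO to WT ratio was 0.623 at the outer region and 0.359 at the inner one. In SKO to WT it was 0.956 and 0.759. The local background in WT, TKO and SKO was 3.17, 5.04 and 3.00 at the outer region. At the inner region it was 2.64, 4.41 and 1.37. Between Hoxd13 and Hoxd12 (74672917 to 74673236) there were 41, 30 and 29 fragments.

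Around Hoxd10, a gene of the limb and lumbar cord, 3 regions stood high in SKO after scaling. Where Hoxd11 and Hoxd10 overlap in the table (74686262 to 74686722), WT had 39 fragments, TKO 44 and SKO 43. At the Hoxd10 promoter (74691371 to 74691999), whose start falls inside the extent of the gene, there were 54, 37 and 53. Further inside the gene (74693986 to 74694481) there were 58, 51 and 73. The scaled SKO to WT ratios were 1.50 (0.952 to 2.38), 1.34 (0.899 to 1.99) and 1.72 (1.20 to 2.47). At the promoter and inside the gene the SKO to TKO ratio was 1.75 (1.13 to 2.73) and 1.74 (1.20 to 2.55), the highest values among Hox regions, with 98% of shared regions lower. The TKO to WT ratios were 1.26, 0.767 and 0.984, and each interval holds 1.

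A WT region of 9 fragments at the Hoxd9 promoter (74697525 to 74697722) was missing from both knockouts. Its −log10 q of 2.73 is in the weakest WT decile, with 2.07% of WT regions weaker. Its summit lay 94 bp before the annotated start of Hoxd9, inside the sequence printed above, with the exact match on the side of the gene.

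**Figure D4:**
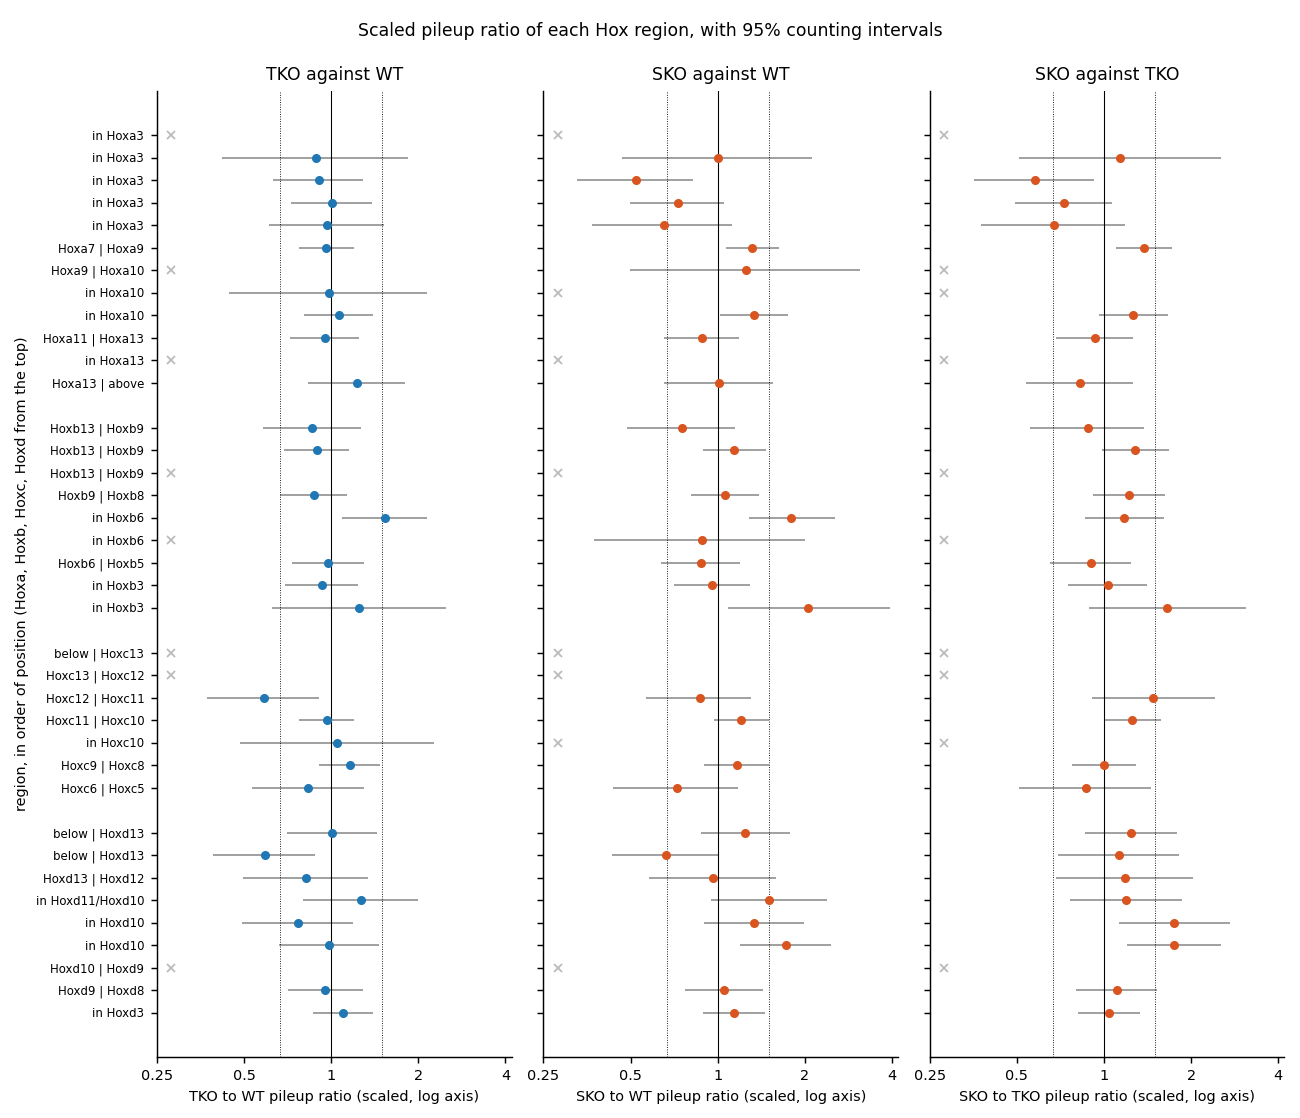
Scaled pileup ratio of each Hox region (x axis, log scale) for TKO to WT, SKO to WT and SKO to TKO, in order of position within Hoxa, Hoxb, Hoxc and Hoxd from top to bottom; bars are 95% counting intervals, dotted lines mark 1.5 times above and below 1, and grey crosses mark regions missing from a list. The lowest SKO to WT value is 0.523, between Hoxa4 and Hoxa5, and the lowest TKO to WT values are 0.586 near Hotair and 0.590 before Hoxd13.

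By the counting intervals alone, 26 of 29 Hox regions could not be told from the typical ratio in TKO to WT, 23 of 29 in SKO to WT and 23 of 27 in SKO to TKO. Those above it were 1, 5 and 3, and those below it 2, 1 and 1. Such intervals were not worked out over all shared regions. Whether these counts are unusual therefore cannot be said. Counting intervals are narrower than any that would hold the spread between replicates. At the weak region near Hoxa4, with 19 and 14 fragments, the SKO to WT ratio of 1.01 had an interval from 0.466 to 2.11, so smaller differences at such regions were not detectable at this depth.

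The distance of 10 kb that defines the members fell in a gap. The outermost members were the region beyond Hoxa13, 9.85 kb away, and that before Hoxb9, 9.58 kb away. The nearest regions left out were one inside Evx2, 12.8 kb from Hoxd13 (17 fragments in WT, 23 in TKO and none called in SKO), and one 15.1 kb before Hoxb9 (45, 44 and 42).

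Genes that act with or on the Hox genes were counted in the same way. Of 9 genes for TALE cofactors, homeodomain proteins that bind DNA together with Hox proteins, 42 WT regions were found, of which 7 lacked a TKO partner and 8 an SKO partner. Pknox2 had the most regions, 15 in WT, 15 in TKO and 13 in SKO, and Pbx2 none in any list. Meis2 lacked 2 of 6 WT regions in each knockout and Pbx3 2 of 4 in TKO. The 5 ParaHox genes, relatives of the Hox genes outside the clusters, had 8 WT regions, with 2 missing from TKO and 1 from SKO. The gut gene Cdx2 had 4 in each list, and Cdx4 had 1 in WT and none in the knockouts.

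The 14 Polycomb and Trithorax genes, whose products keep Hox genes silent or active, had 62 WT regions, with 13 missing from TKO and 19 from SKO. Jarid2, a partner of Polycomb repressive complex members, accounted for 7 of its 15 in each, and Suz12, a subunit of that complex, for 3 of 8 in each. Cbx7, a chromodomain protein of the other Polycomb complex, lacked none of 10 in TKO and 3 of 10 in SKO. Of 18 neighbours of the clusters, 16 were matched in the table, with 82 WT regions (5 of them also counted as Hox regions), of which 12 were missing from TKO and 14 from SKO. These shares can be set beside the 19% and 21.9% of all WT regions.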

How the data were processed

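Peak lists of 3 genotypes were used, 1 per genotype, each called by the authors on 3 pooled ChIP replicates against pooled inputs, per the labels. The submitters' processing notes list the build mm10 and, among other tools, MACS2 2.1.2 and Bowtie2 2.3.4, without settings. Each deposited row holds a fold ratio (pileup over local background) and the authors' −log10 p and −log10 q, the lowest −log10 q being 1.30 to 1.31.

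Rows with equal intervals were joined and the strongest summit kept. Regions overlapping by at least 1 bp were partners, and overlapping regions of the 3 lists were merged. Pileup and background were solved from fold and −log10 p under a Poisson model (relative tolerance 1e-04), and pileup ratios carry exact conditional binomial 95% intervals. Lists were cut into 10 bins by −log10 q. The scripts were tested on simulated data. Gene boundaries were read from a RefSeq gene table (GRCm38.p6, the assembly of mm10), which gives no exons, so exonic, intronic and UTR positions are not stated. All 38 symbols matched. All regions found by the rule were described. Other genes were named from 4 written lists, mainly those with most missing partners; Pknox2, Pbx2, Cdx2 and Cbx7 were chosen after their values were seen. The motif letters were chosen after the data were seen, and longer forms of the motif were searched but are not reported. The members and lists were chosen with earlier results of these data known. Python 3.11.15, pandas 2.3.3 and SciPy 1.17.1 were used. The alternatives were the distance to genes, the threshold, the overlap rule, joining of rows and the scaling.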

Additional observations from a re-analysis of the deposited data

How the results depend on the processing

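No paired analysis was possible because each list pools its replicates, and for the same reason no replicate could be left out. Over 12 results and 63 alternative values, 39 stayed within 1.5 times the count or inside the counting interval. With gene bodies alone, WT, TKO and SKO had 15, 15 and 14 Hox regions, WT regions without a TKO or SKO partner numbered 1 and 2, TKO regions without a WT partner 1, and the median SKO to WT ratio was 1.14. With 50 kb either side, WT and TKO had 55 and 48 regions, the WT regions without a TKO or SKO partner numbered 9 and 12, and TKO regions without an SKO partner 8. At a −log10 q of at least 5, 1 WT region lacked a TKO partner, 3 lacked an SKO partner, 1 TKO region lacked a WT partner and 2 an SKO partner, and 0 SKO regions lacked a WT partner and 0 a TKO partner. With summits within 100 bp, 2 SKO regions lacked a WT partner. Scaled by genome-wide backgrounds, the median TKO to WT ratio was 0.832, SKO to WT 0.991 and SKO to TKO 1.24. From deposited folds, TKO to WT was 0.882, SKO to WT 0.867 and SKO to TKO 1.06, so the SKO to WT median lies above 1 by pileup and below it by fold. The cause was not tested, but the construction differs: folds hold the local background and were not scaled by a typical ratio. Depth limits weak regions most, since the lowest pileup called was 7 or 8 fragments.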

Other observations

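Outside the 10 kb distance, the 74.7 kb between Hoxb13 and Hoxb9 held 4 further regions, all present in the 3 lists. The strongest in WT (96234869 to 96235354) had 144 fragments in WT, 159 in TKO and 129 in SKO. Its neighbour (96240185 to 96240598) had 134, 108 and 81. Beyond Hoxb1, 7 regions lay within 100 kb, 4 of them in all lists. Below Hoxb13, 13 regions lay within 100 kb, in the autophagy receptor gene Calcoco2 and the tubulin ligase gene Ttll6, and 10 of them were in all lists. The strongest of these, inside Ttll6 (96133394 to 96133914), had 210 fragments in WT, 159 in TKO and 119 in SKO.

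The flanks of the other clusters were emptier. Within 100 kb, Hoxa had 2 regions on the side of Hoxa2 and 3 on that of Hoxa13, of which the strongest (52305846 to 52306316), close to the homeobox gene Evx1, had 107, 87 and 71 fragments. Hoxc had 1 region on the side of Hoxc13 and 6 on that of Hoxc4. Hoxd had 4 on the side of Hoxd13 and none on that of Hoxd1, where the mitochondrial import gene Mtx2 had no region within 10 kb in any list. One of the 4 (74635422 to 74635868), 32.6 kb from Hoxd13, had 49 fragments in WT, 24 in TKO and 23 in SKO. Its scaled ratio was 0.548 in TKO to WT and 0.640 in SKO to WT. The other shared regions on that side stood above 1, with 1.40 and 1.50 inside the Lnpk gene and, in TKO to WT, 1.51 inside Evx2. They had few fragments, 20 in WT, 25 in TKO and 22 in SKO inside Lnpk, and 17 in WT and 23 in TKO inside Evx2. No counting intervals were worked out for the flanking regions, and at such low pileups the counting error is wide.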
